A study of Mus musculus with 8 samples.

Results

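The 10 genes described here encode transcription factors known for mesenchymal programs and for the epithelial-to-mesenchymal transition (EMT), the change in which cells lose epithelial junctions and gain motility and matrix production. They were taken by name: SNAI1, SNAI2, TWIST1, ZEB1, ZEB2, RUNX1, RUNX2, FOXC1, FOXC2 and SOX4, written here as the count table spells them. All 10 were among the 13937 genes of the table, and all 10 were among the 13509 genes with enough reads to be tested. The libraries came from primary astrocytes grown from the brains of C57BL/6 pups aged 1 day, either wild type (WT) or lacking RGC-32 (RGC-32 KO, shortened to KO), a regulator of cell cycle and differentiation encoded by Rgcc. Cells of each genotype were serum-starved overnight and were then left as control or exposed for 24 h to 10 ng/ml of TGF-β. There were 2 biological replicates in each of the 4 groups, with library totals of 14920561 to 18956038 counts. Whether the 2 replicates came from separate litters or cultures was not given, so p-values measure the spread between these samples.

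TGF-β binds a pair of receptor kinases that phosphorylate SMAD2 and SMAD3, and the SMADs then act with other factors at target genes, several of which are themselves transcription factors. The Snail zinc finger factors SNAI1 and SNAI2, the basic helix-loop-helix factor TWIST1 and the zinc finger homeobox factors ZEB1 and ZEB2 are known as repressors of E-cadherin in epithelial cells. The Runt factors RUNX1 and RUNX2 direct blood and bone development, the forkhead factors FOXC1 and FOXC2 act in mesoderm, vessels and meninges, and SOX4 is a SOXC factor of progenitor cells and a known TGF-β target. Astrocytes are glial cells of neural origin, not epithelial, and turn reactive in injury and inflammation.

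A gene was called when its change was at least 0.6 on the log2 scale, about 1.5-fold, and its adjusted p was under 0.05 over all genes tested. Below, rose and fell are used of genes whose adjusted p was under 0.05, with a statement where the change was smaller than that limit. In WT cells TGF-β raised SNAI1, RUNX1 and RUNX2 past both limits and lowered SNAI2, so 3 of the 10 factors were called up and 1 was called down. In KO cells the same comparison, from the same fit of all 8 libraries, called SNAI1, RUNX1 and RUNX2 up and no factor down, and RUNX2 was not called when the 4 KO libraries were fitted alone (0.59). The background was 7.72% of all genes called up and 5.65% called down in WT, and 6.61% up and 4.93% down in KO. By adjusted p alone, 4 factors rose and 2 fell in WT, where 18.6% of all genes rose and 14.3% fell, and 4 rose and 0 fell in KO, where 16.6% rose and 11.8% fell. The median change of the 10 factors was 0.01 in WT and 0.07 in KO on the log2 scale, beside -0.005 and 0.003 over all genes, with 5 factors above 0 and 5 below in each genotype. No factor was called between genotypes or for the difference between the genotypes' responses.

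**Figure D1:**
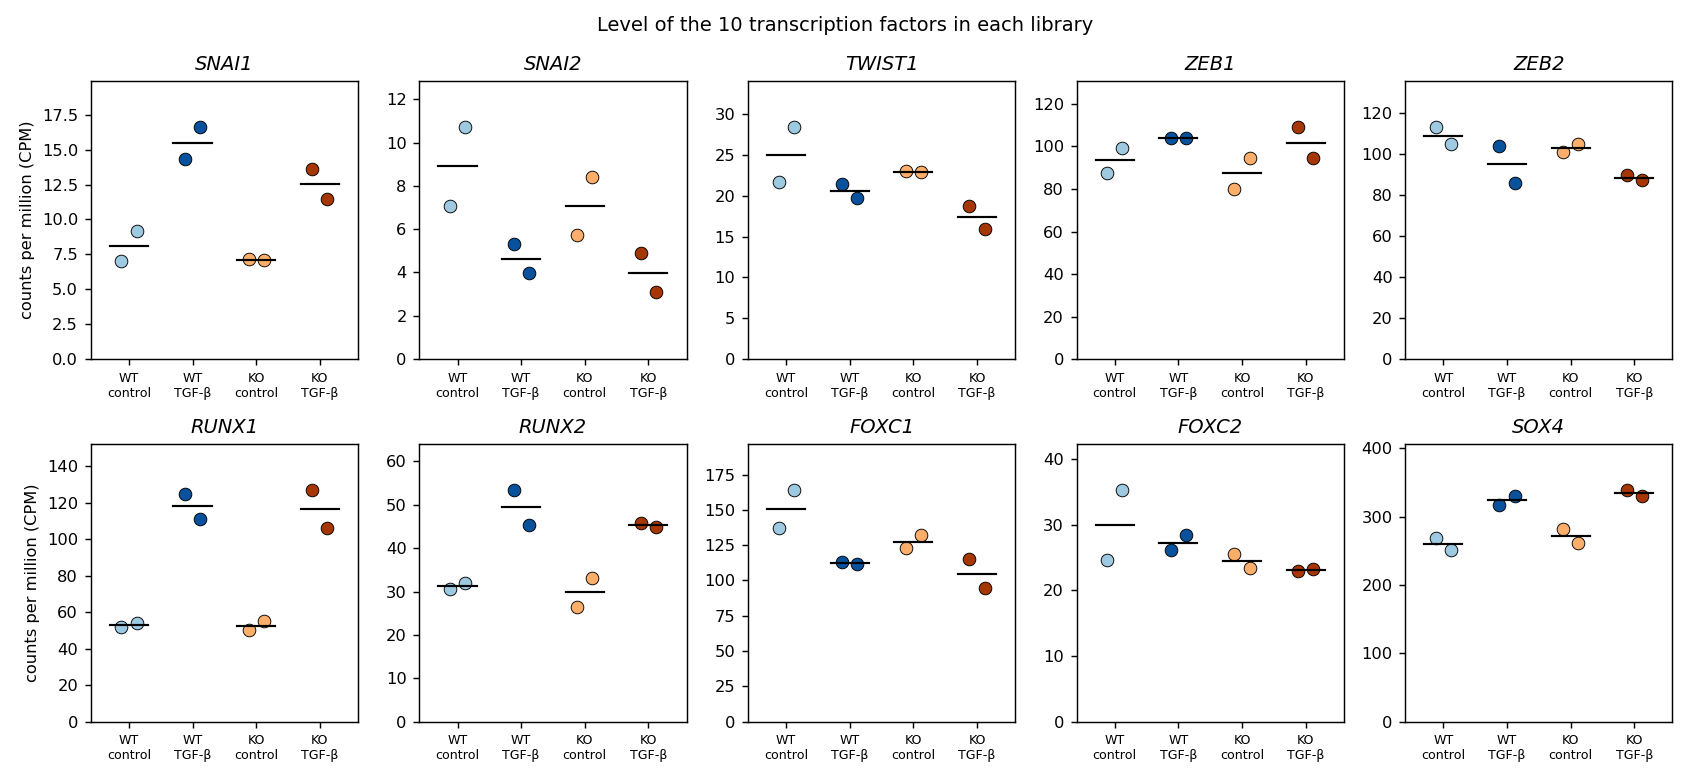
Each panel shows 1 transcription factor, with CPM (the reads of a gene scaled to the library total) on the vertical axis from 0, 1 point for each library and a line at the mean of each group (2 libraries a group). SNAI1, RUNX1, RUNX2 and SOX4 lie higher in every TGF-β library than in every control library of either genotype. SNAI2, FOXC1 and TWIST1 lie lower in every TGF-β library than in every control library, TWIST1 by a narrow margin. The share of all genes separated in this way was not computed. By adjusted p alone, 25.7% of all genes rose and 22.4% fell in the mean of the WT and KO responses.

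The stretches just upstream of the genes called up in both genotypes are printed to show the sequence before their annotated starts. Which starts were used in these cells was not measured. They are RefSeq windows on GRCm38.p6, the 250 bases before each annotated start, read 5′ to 3′ on the gene's strand. Capitals mark matches, on either strand, to CAGAC (a SMAD half-site), CACCTG (the E-box preferred by the Snail and ZEB factors), TGTGGT (a RUNX site) and TGANTCA (an AP-1 site). None of these motifs contains another.
SNAI1, chr2:167537945-167538194, plus strand: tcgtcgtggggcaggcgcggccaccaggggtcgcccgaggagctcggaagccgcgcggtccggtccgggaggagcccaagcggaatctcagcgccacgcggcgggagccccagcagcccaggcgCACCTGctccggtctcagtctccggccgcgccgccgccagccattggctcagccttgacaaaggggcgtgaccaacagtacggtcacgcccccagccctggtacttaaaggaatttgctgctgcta
RUNX1, distal start, chr16:92826075-92826324, minus strand: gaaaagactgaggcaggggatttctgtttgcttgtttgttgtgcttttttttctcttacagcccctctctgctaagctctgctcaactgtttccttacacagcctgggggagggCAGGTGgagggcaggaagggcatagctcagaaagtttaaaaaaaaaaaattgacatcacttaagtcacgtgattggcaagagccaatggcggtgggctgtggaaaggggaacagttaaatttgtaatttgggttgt
RUNX1, proximal start, chr16:92697330-92697579, minus strand: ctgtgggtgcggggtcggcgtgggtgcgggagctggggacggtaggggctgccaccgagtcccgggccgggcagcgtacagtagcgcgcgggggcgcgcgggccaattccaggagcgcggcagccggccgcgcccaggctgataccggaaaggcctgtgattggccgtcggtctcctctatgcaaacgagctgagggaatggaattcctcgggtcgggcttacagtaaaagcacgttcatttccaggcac
RUNX2, chr17:44814628-44814877, minus strand: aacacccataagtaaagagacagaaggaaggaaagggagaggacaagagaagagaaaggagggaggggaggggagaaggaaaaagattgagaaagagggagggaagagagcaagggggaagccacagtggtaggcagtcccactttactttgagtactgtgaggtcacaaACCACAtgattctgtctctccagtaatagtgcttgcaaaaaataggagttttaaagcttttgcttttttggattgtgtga
The SNAI1 window holds 1 E-box, beginning at -126 from the start, and the distal RUNX1 window holds 1, beginning at -136. The RUNX2 window holds 1 RUNX site, beginning at -80, and the proximal RUNX1 window holds none of the 4 motifs. The bases just after the proximal RUNX1 start matched no GENCODE transcript of the gene. RUNX2 has 13 annotated transcripts, and any other start of it is not covered. The E-box occurred in 17.2% of all 32851 promoter windows of the same length and the RUNX site in 14%, so neither is rare. Across the 11 windows used for 7 of the 10 factors, the SMAD half-site occurred in 2 (TWIST1 and SOX4), against 42.2% of all windows. Several of the 11 belong to ZEB2, and those at 45113254-45113503 and 45113280-45113529 overlap, so they are not all separate promoters. The AP-1 site occurred in 1, a ZEB2 window, against 6.75%. A match is a description of letters, and binding was not measured.

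In WT, SNAI1 was called up and SNAI2 down, while in KO SNAI1 was the called one of the pair. SNAI1, on chromosome 2 (167538195-167542814, plus strand, 3 exons), is known as an early TGF-β target and repressor of E-cadherin. Its level in the WT libraries was 7.03 and 9.19 CPM in control and 14.3 and 16.6 CPM after TGF-β. In the KO libraries it was 7.15 and 7.10 CPM in control and 13.6 and 11.5 CPM after TGF-β. In both genotypes every TGF-β library was above every control library. SNAI1 rose 1.90-fold in WT (log2 fold change 0.93, SE 0.16, adjusted p = 0.00398) and 1.76-fold in KO (0.82, SE 0.16, adjusted p = 0.00914). The KO call was lost without KO control replicate 2 (0.81, adjusted p = 0.051) and without KO TGF-β replicate 1 (0.69, adjusted p = 0.0643).

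SNAI2, on chromosome 16 (14705852-14709385, plus strand, 3 exons), is also called Slug and is known in neural crest and in mesenchymal cells. It was the least abundant member, with 47 to 179 reads a library. Its level was 7.09 and 10.7 CPM in WT control and 5.31 and 3.96 CPM in WT TGF-β. It was 5.74 and 8.40 CPM in KO control and 4.89 and 3.10 CPM in KO TGF-β. The TGF-β libraries were below the control libraries in both genotypes, but the replicates of each group lay far apart. SNAI2 fell 1.91-fold in WT (log2 fold change -0.93, SE 0.30, adjusted p = 0.0458), a call close to the limit. It was lost without WT control replicate 2 (-0.62, adjusted p = 0.225), without WT TGF-β replicate 1 (-1.16, adjusted p = 0.0746), without WT TGF-β replicate 2 (-0.76, adjusted p = 0.199), with limma-voom (adjusted p = 0.0508) and with a fit of the 4 WT libraries (adjusted p = 0.0508). In KO the change was -0.83 (SE 0.32, adjusted p = 0.0873) and was not called.

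The levels of the 2 Snail factors were also set side by side within each library as a ratio of FPKM, the authors' fragment density scaled to transcript length and library size, which allows genes of different length to be compared. SNAI1 stood at 1.19 and 1.11 times the level of SNAI2 in WT control and at 3.63 and 4.95 times in WT TGF-β. The ratio was 1.43 and 1.22 in KO control and 3.62 and 4.21 in KO TGF-β. The pair was thus near parity in all 4 control libraries, and SNAI1 was at least 3.62 times as abundant in all 4 TGF-β libraries. RUNX1 to RUNX2 went from 1.45 and 1.35 to 1.93 and 1.84 in WT and from 1.42 and 1.44 to 2.21 and 1.84 in KO, again without overlap. ZEB1 to ZEB2 went from 1.2 and 1.48 to 1.6 and 1.82 in WT, also without overlap. In KO it went from 1.32 and 1.41 to 1.81 and 1.73, likewise without overlap. FOXC1 to FOXC2 went from 3.4 and 3.16 to 2.81 and 2.48 in WT. In KO it was 3.12 and 3.59 in control and 3.13 and 2.48 after TGF-β, which overlap. How often other gene pairs separate in this way was not computed.

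**Figure D2:**
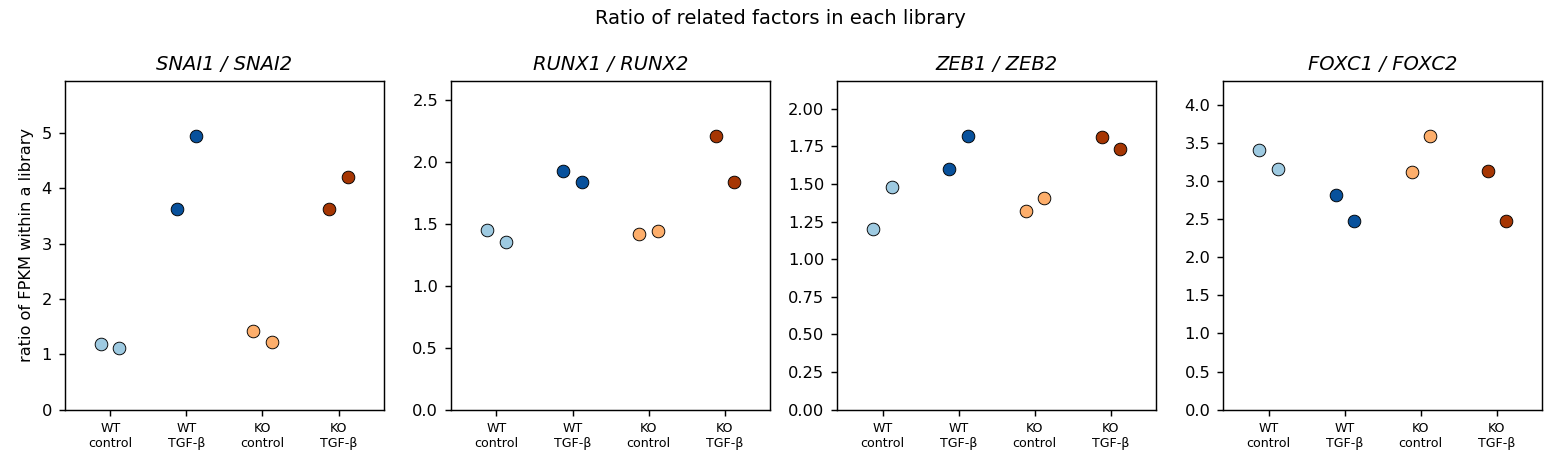
Each panel shows the ratio of FPKM of 2 related factors within a library, from 0, with 1 point for each of the 8 libraries. The SNAI1 to SNAI2 ratio lies between 1.11 and 1.43 in control libraries and between 3.62 and 4.95 in TGF-β libraries. The ZEB1 to ZEB2 ratio lies between 1.2 and 1.48 in control libraries and between 1.6 and 1.82 in TGF-β libraries. The FOXC1 to FOXC2 ratio lies between 2.48 and 3.59 throughout, lower after TGF-β in WT and overlapping in KO.

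RUNX1 gave the largest change among the 10 factors in both genotypes. RUNX1, on chromosome 16 (92601466-92826149, minus strand, 9 exon blocks), is a master regulator of blood stem cells that also acts in mesenchymal cells. Its level was 52.2 and 53.9 CPM in WT control and 125 and 111 CPM in WT TGF-β. It was 50.1 and 55.3 CPM in KO control and 127 and 106 CPM in KO TGF-β. The 2 genotypes were nearly superimposed, with a gap between control and TGF-β libraries far wider than that between replicates. RUNX1 rose 2.22-fold in WT (log2 fold change 1.15, SE 0.10, adjusted p = 0.000285) and 2.20-fold in KO (1.14, SE 0.10, adjusted p = 0.000369). Its call held under each of the 17 refits tried in both genotypes, which include other tools, scalings and leaving out each library, and missed the limit only under Bonferroni correction (adjusted p = 0.0522 in WT and 0.0568 in KO).

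RUNX2, on chromosome 17 (44495987-44814797, minus strand, 11 exon blocks), is the master regulator of osteoblast differentiation. Its level was 30.7 and 31.9 CPM in WT control and 53.4 and 45.4 CPM in WT TGF-β. It was 26.5 and 33.1 CPM in KO control and 45.8 and 44.9 CPM in KO TGF-β. The TGF-β libraries stood above the control libraries in both genotypes. RUNX2 rose 1.58-fold in WT (log2 fold change 0.66, SE 0.11, adjusted p = 0.00423) and 1.52-fold in KO (0.60, SE 0.12, adjusted p = 0.00756). Both values sit at the fold limit of 0.6, so whether RUNX2 was called turned on small choices, while its adjusted p did not. The KO value was under the limit in 11 of 17 refits, among them DESeq2 (0.59) and upper quartile scaling (0.52). It was lowest without KO control replicate 1 (0.44), and lay between 0.58 and 0.60 without KO TGF-β replicate 1 or 2, WT control replicate 2, or WT TGF-β replicate 1 or 2. The WT value was under it in 2, with upper quartile scaling (0.57) and without WT TGF-β replicate 1 (0.54). The adjusted p stayed at 0.0395 or below in KO and at 0.0235 or below in WT in all 17. Runx2os1, an antisense gene, shares 519 bases with RUNX2 exons (5.87% of their length), and the libraries were not stranded, so reads of the 2 genes there cannot be told apart.

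SOX4, on chromosome 13 (28948919-28953713, minus strand, 1 exon), was the most abundant member. Its level was 269 and 252 CPM in WT control and 317 and 331 CPM in WT TGF-β. It was 282 and 262 CPM in KO control and 339 and 331 CPM in KO TGF-β. All 4 TGF-β libraries were above all 4 control libraries. SOX4 rose 1.24-fold in WT (log2 fold change 0.31, SE 0.06, adjusted p = 0.00842) and 1.23-fold in KO (0.30, SE 0.06, adjusted p = 0.0118), below the fold limit. An antisense noncoding gene, Gm26735, covers 2616 bases (54.6%) of the SOX4 exon, and reads from the 2 strands cannot be told apart.

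Of the forkhead factors and TWIST1, FOXC1 alone passed the adjusted p, in WT. FOXC1, on chromosome 13 (31806633-31812476, plus strand, 1 exon), is needed for the meninges and for vessel support cells. Its level was 137 and 164 CPM in WT control and 113 and 112 CPM in WT TGF-β. It was 123 and 132 CPM in KO control and 115 and 94.5 CPM in KO TGF-β. The groups did not overlap in either genotype. FOXC1 fell in WT by less than the fold limit (log2 fold change -0.42, SE 0.11, adjusted p = 0.0223), and the change in KO was -0.29 (SE 0.11, adjusted p = 0.0885). Over the 17 refits the WT change ran from -0.55 to -0.30, and its adjusted p was not under 0.05 in every one.

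FOXC2, on chromosome 8 (121116171-121118895, plus strand, 1 exon), is known in lymphatic vessels and in EMT. Its level was 24.6 and 35.3 CPM in WT control and 26.1 and 28.5 CPM in WT TGF-β, and these groups overlapped. It was 25.5 and 23.4 CPM in KO control and 23.0 and 23.3 CPM in KO TGF-β. The change was -0.14 (SE 0.15) in WT and -0.07 (SE 0.16) in KO on the log2 scale, with 95% intervals of -0.49 to 0.21 and -0.44 to 0.29, and adjusted p of 0.517 and 0.754.

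TWIST1, on chromosome 12 (33957671-33959829, plus strand, 2 exons), is known in cranial mesoderm and neural crest. Its level was 21.7 and 28.4 CPM in WT control and 21.5 and 19.8 CPM in WT TGF-β. It was 23.0 and 22.9 CPM in KO control and 18.8 and 16 CPM in KO TGF-β. The TGF-β libraries were the lower ones in both genotypes, by a narrow margin in WT. In WT the change was -0.28 (SE 0.14, adjusted p = 0.146), in KO it was -0.40 (SE 0.14, adjusted p = 0.065), and neither passed.

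ZEB1 and ZEB2, zinc finger factors that TGF-β raises in many epithelial cells, were close to level in both genotypes. ZEB1, on chromosome 18, was at 87.6 and 99.5 CPM in WT control and 104 and 104 CPM in WT TGF-β, and at 79.9 and 94.7 CPM in KO control and 109 and 94.7 CPM in KO TGF-β. Its change was 0.15 in WT (95% interval -0.09 to 0.39, adjusted p = 0.293) and 0.22 in KO (-0.02 to 0.46, adjusted p = 0.153). ZEB2, on chromosome 2 (44983632-45117395, minus strand, 18 exon blocks), was at 113 and 105 CPM in WT control and 104 and 85.9 CPM in WT TGF-β, and at 101 and 105 CPM in KO control and 89.7 and 87.3 CPM in KO TGF-β. Its change was -0.20 in WT (-0.41 to 0.01, adjusted p = 0.133) and -0.22 in KO (-0.43 to -0.01, adjusted p = 0.108). All 4 intervals lay inside 0.6 in either direction, so a change of the size used for calls was outside them. Zeb2os, an antisense gene named here for its overlap with ZEB2, shares 653 bases (3.27% of ZEB2 exon length) and fell in WT (-0.70, SE 0.15, adjusted p = 0.0111) and by less than the fold limit in KO (-0.47, SE 0.15, adjusted p = 0.0499).

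**Figure D3:**
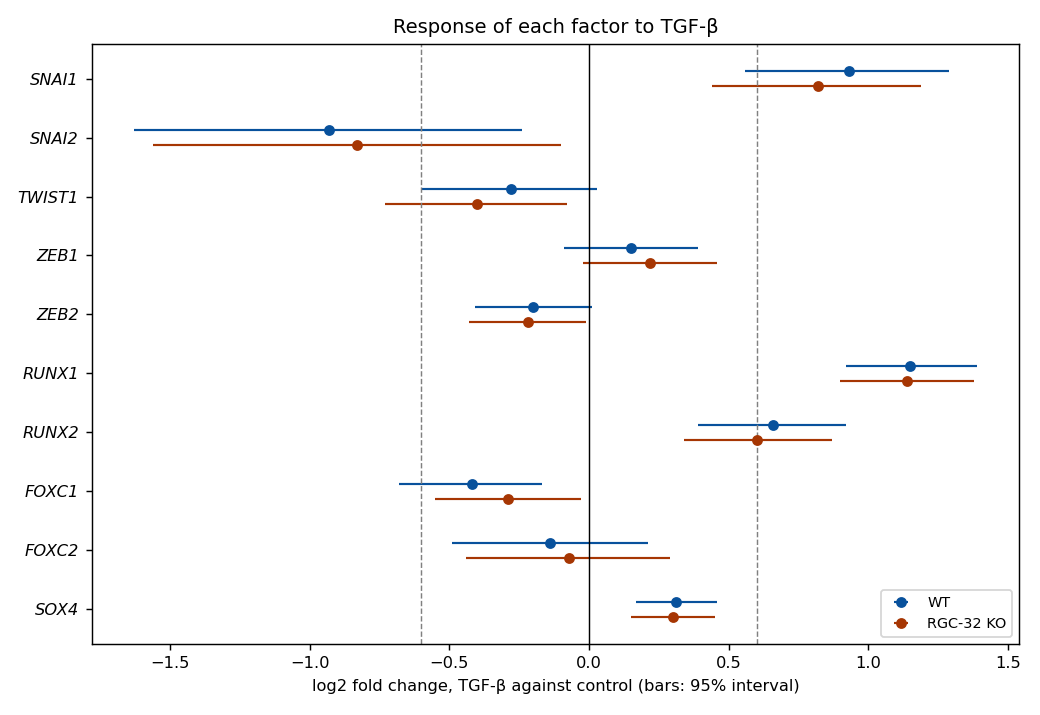
The horizontal axis gives the log2 fold change of TGF-β against control, with a point for each genotype, a bar for its 95% interval and dashed lines at the fold limit of 0.6 in either direction (2 libraries a group). RUNX1 is the member whose interval lies wholly past the limit in both genotypes, from 0.92 to 1.39 in WT and 0.90 to 1.38 in KO, and the WT and KO points of every factor lie within each other's bars.

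A mean of the WT and KO responses in the same fit, chosen after the values above were seen, used all 8 libraries. It called the same 4 factors as in WT: SNAI1 (0.87, SE 0.11, adjusted p = 0.000619), RUNX1 (1.15, SE 0.07, adjusted p = 2.47e-05) and RUNX2 (0.63, SE 0.08, adjusted p = 0.00057) up and SNAI2 (-0.88, SE 0.22, adjusted p = 0.012) down. The background for this mean was 8.33% of genes called up and 6.75% called down. The RUNX2 value went under the fold limit without WT TGF-β replicate 1 (0.57), without KO control replicate 1 (0.54) and with upper quartile scaling (0.55). By adjusted p alone 4 factors rose and 4 fell, beside 25.7% and 22.4% of all genes. The added ones below the fold limit were SOX4 up (0.31, adjusted p = 0.00112) and FOXC1 (-0.36, adjusted p = 0.00718), TWIST1 (-0.34, adjusted p = 0.021) and ZEB2 (-0.21, adjusted p = 0.029) down. For TWIST1 and ZEB2 the adjusted p was not under 0.05 in every refit. ZEB1 (0.18, adjusted p = 0.0684) and FOXC2 (-0.11, adjusted p = 0.452) did not pass.

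The study compared genotypes to ask which TGF-β responses depend on RGC-32. The paper lists Runx2 among the genes that TGF-β raised in WT alone, and reports the same for it by quantitative PCR. In the counts used here RUNX2 rose in both genotypes, with the KO change at the fold limit. Rgcc itself checked the labels. It was at 5.16 and 5.61 CPM in WT control, 11.9 and 23.1 CPM in WT TGF-β, 3.89 and 1.66 CPM in KO control and 4.29 and 1.72 CPM in KO TGF-β, so each KO library was below every WT library, though reads remained. Rgcc rose in WT (1.69, SE 0.44, adjusted p = 0.0221) and its change in KO was 0.12 (SE 0.58, adjusted p = 0.89).

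None of the 10 factors was called between genotypes, in control cells or after TGF-β, where 0.037% and 0.0444% of all genes were called. KO minus WT ranged from -0.33 (SNAI2) to 0.06 (SOX4) in control and from -0.30 (SNAI1) to 0.05 (SOX4) after TGF-β on the log2 scale. The adjusted p of these differences was between 0.725 and 0.996 in control and between 0.492 and 0.964 after TGF-β. In both comparisons 9 of the 10 factors were below 0 (SOX4 was the exception), beside 52.4% of all genes in control and 49.9% after TGF-β. The median was -0.11 in each, beside -0.007 and 0.000 over all genes. The 2 comparisons use different libraries, but whether control and TGF-β libraries of a genotype share cultures is not given. FOXC1 was lower in both KO control libraries than in either WT control library (-0.24, 95% interval -0.49 to 0.02). It was the 1 factor without overlap between the genotypes' control libraries, where 17.4% of all genes lay below in KO and 15.5% above without overlap. After TGF-β, SNAI1 (-0.30, 95% interval -0.65 to 0.05), TWIST1 (-0.25, -0.57 to 0.08) and FOXC2 (-0.23, -0.59 to 0.13) were lower in both KO libraries than in either WT library and SOX4 was higher (0.05, -0.10 to 0.20), where 22.4% of all genes lay below and 23.9% above without overlap.

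The response in KO minus that in WT was between -0.12 (TWIST1) and 0.13 (FOXC1), with an adjusted p of 1 for every factor. No gene of the table was called for this difference (0%), and 381 of 13509 had an unadjusted p under 0.05 in edgeR. For 8 of the 10 factors the 95% interval lay inside 0.6 in either direction, so differences in response of the size used for calls were outside it. For RUNX1 the interval was -0.34 to 0.32 and for RUNX2 -0.43 to 0.32. SNAI1 (-0.64 to 0.42) and SNAI2 (-0.91 to 1.12) had the wider ones, which reach past that size. SNAI2 was called in WT and not in KO, but the difference between the genotypes' responses was 0.11 (SE 0.44), smaller than its error.

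**Figure D4:**
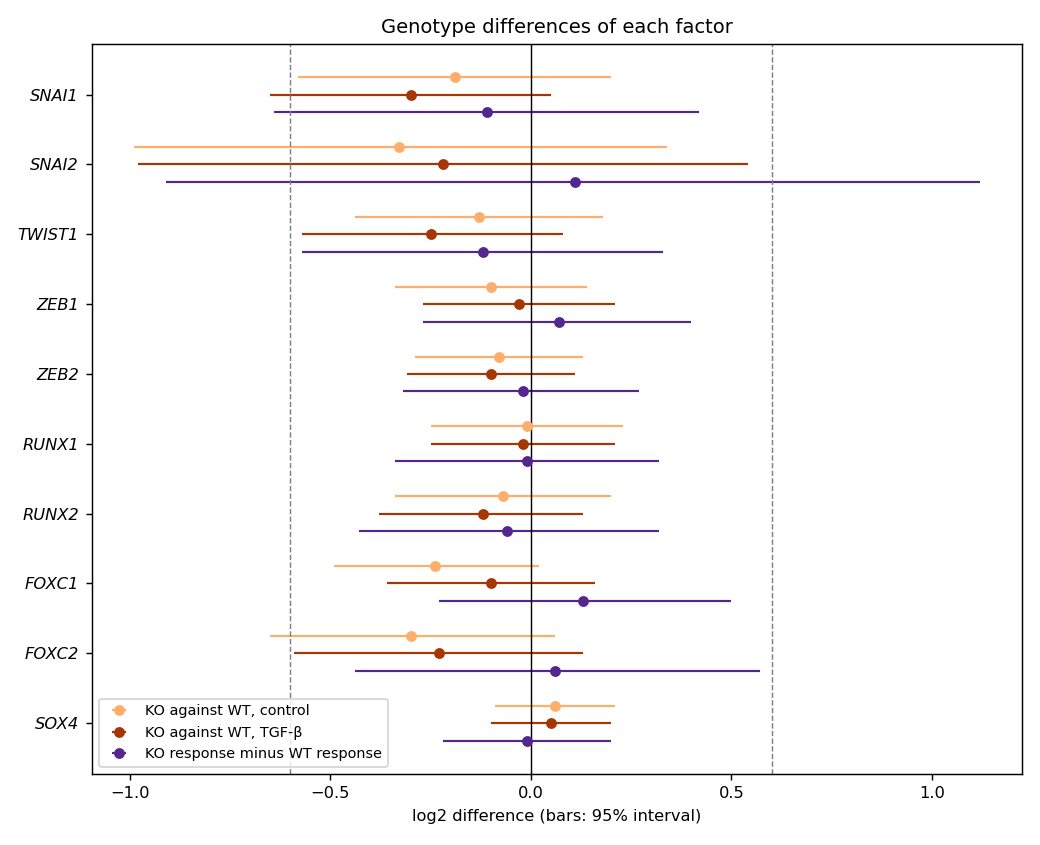
The horizontal axis gives log2 differences between genotypes, with a point and a 95% interval for KO against WT in control cells, KO against WT after TGF-β, and the KO response minus the WT response (2 libraries a group, dashed lines at 0.6 in either direction). Nearly all points lie left of or close to 0, every interval includes 0, and the widest are those of SNAI2.

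Per unit of length the factors spanned a wide range. The median FPKM over the 8 libraries was 56.5 for SOX4 (50.4 to 62.1) and 27.7 for FOXC1 (21.3 to 39.6), and neither range overlapped the next. ZEB1 (14.8, 13 to 15.3), TWIST1 (13.2, 9.19 to 18.7), ZEB2 (9.68, 8.08 to 11.3), RUNX1 (9.36, 6.17 to 15.4) and FOXC2 (9.27, 8.20 to 12.5) followed, with each range overlapping that of its neighbour. SNAI1 (6.03, 4.31 to 8.49), RUNX2 (5.63, 4.34 to 7.25) and SNAI2 (2.65, 1.51 to 5.13) were lowest. In control cells alone, RUNX1 had a mean of 6.68 FPKM (SD 0.468 over 4 libraries), below FOXC2 at 10.2 (SD 1.56).

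The relatives and partners of these factors, a list of 18 genes of which 17 were tested, included 2 called up and 5 called down in WT and 1 up and 4 down in KO. The median was 0.02 in WT and 0.09 in KO. SOX11, a SOXC paralog of SOX4, was at 8 and 7.46 CPM in WT control and 20.9 and 25.1 CPM in WT TGF-β, and rose in both genotypes (in WT 1.57, SE 0.13, adjusted p = 0.000216, and in KO 1.31, SE 0.13, adjusted p = 0.000497). TWIST2, the paralog of TWIST1, rose in WT (0.66, SE 0.21, adjusted p = 0.0451) and its change in KO was 0.54 (SE 0.22, adjusted p = 0.105). RUNX3 did not pass (in WT 0.55, adjusted p = 0.0874, and in KO 0.25, adjusted p = 0.442), and SNAI3 had 0 to 35 reads a library. CBFB, the shared partner subunit of the RUNX proteins, rose by less than the fold limit (in WT 0.31, SE 0.06, adjusted p = 0.00503, and in KO 0.28, SE 0.06, adjusted p = 0.0082). RUNX1T1, a corepressor known from its fusion with RUNX1 in leukemia, fell in both (-0.70 and -0.76, SE 0.14 each, adjusted p = 0.00702 and 0.0073).

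The ID proteins, which lack a DNA-binding region and hold E proteins away from factors such as TWIST1, fell together. ID3 went from 269 and 291 CPM to 120 and 132 CPM in WT (-1.15, SE 0.08, adjusted p = 0.000143) and from 292 and 259 CPM to 137 and 131 CPM in KO (-1.04, SE 0.08, adjusted p = 0.000233). ID4 (-1.22 in WT and -1.04 in KO) and ID1 (-0.80 and -0.76) were called in both genotypes, and ID2 was called in WT (-0.75, adjusted p = 0.000175) and fell by less than the fold limit in KO (-0.54, adjusted p = 0.000633). Their E protein partners TCF3, TCF4 and TCF12 did not pass in either genotype, with changes between -0.09 and 0.13.

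**Figure D5:**
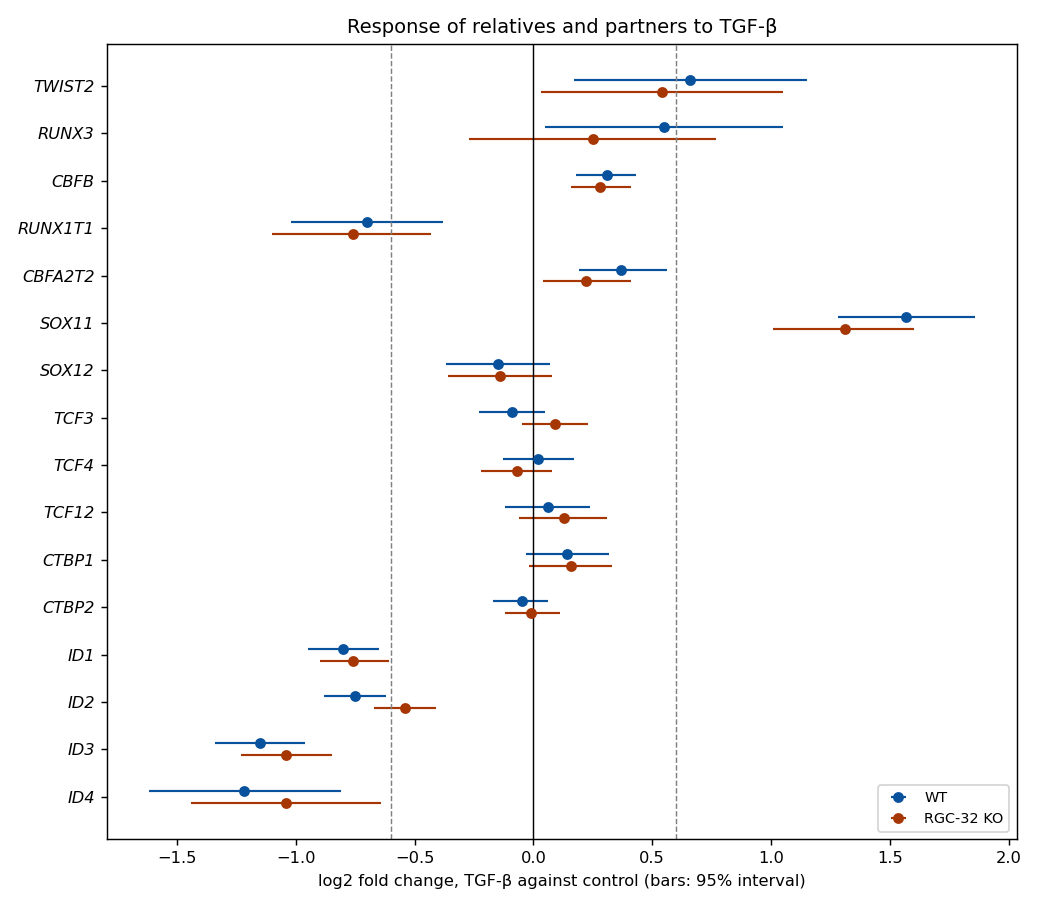
The horizontal axis gives the log2 fold change of TGF-β against control for 16 relatives and partners, with 95% intervals, in WT and KO (2 libraries a group, dashed lines at 0.6 in either direction). SOX11 lies at 1.57 and 1.31, the 4 ID genes lie between -1.22 and -0.54, and the E proteins TCF3, TCF4 and TCF12 lie near 0. SNAI3 was left out for its low counts.

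Among 32 other mesenchymal and EMT transcription factors, 26 were tested, of which 10 were called up and 0 down in WT and 11 up and 0 down in KO, with medians of 0.53 and 0.59. The leading ones were FOXQ1, a forkhead factor of EMT (3.40, SE 0.55 in WT and 3.23, SE 0.58 in KO), SCX, the tendon factor scleraxis (2.75, SE 0.19 and 2.87, SE 0.20), and FOXS1, a forkhead factor (1.89, SE 0.26 and 2.37, SE 0.27). Each exceeded the change of every one of the 10 members, but from low control levels. FOXQ1 had 3 to 19 reads a control library, FOXS1 8 to 12 and SCX 29 to 39. The 6 direct SMAD targets listed, such as PMEPA1 (2.63, SE 0.24 in WT and 2.65, SE 0.24 in KO) and LDLRAD4 (2.08, SE 0.09 and 2.20, SE 0.09), were all called up in both genotypes.

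Genes that these factors are known to act on moved unevenly. Of 21 mesenchymal genes induced in EMT, 14 were called up and 0 down in WT and 16 up and 0 down in KO (medians 1.11 and 1.15), among them the collagen cross-linking enzymes LOX (2.88, SE 0.17 in WT and 2.71, SE 0.17 in KO) and LOXL2 (2.21, SE 0.25 and 2.10, SE 0.25). The intermediate filament gene VIM fell in both genotypes by less than the fold limit (-0.50, SE 0.10, adjusted p = 0.0081, and -0.51, SE 0.10, adjusted p = 0.00893), and N-cadherin, CDH2, was at 0.10 in each (adjusted p = 0.386 and 0.408). These 2 genes were singled out after their values were seen. Of 21 epithelial genes repressed in EMT, 9 were tested, and they split, with 3 called up and 3 down in WT and 2 up and 2 down in KO. The tight junction genes OCLN (-1.01, SE 0.23 in WT and -0.87, SE 0.22 in KO) and CLDN1 (-0.94, SE 0.27 and -0.96, SE 0.26) fell, and TJP3 fell in WT (-0.95, SE 0.23) with a change in KO of -0.61 (adjusted p = 0.0836). The desmosome genes DSP (3.45, SE 0.35 and 2.52, SE 0.35) and JUP (1.06, SE 0.15 and 0.82, SE 0.15) rose, and the splicing factor ESRP2 rose in WT (3.16, SE 0.62) with a change in KO of 2.01 (adjusted p = 0.0561). ESRP2 had 3 to 19 reads a control library and DSP 21 to 46.

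Of 14 osteogenic genes downstream of RUNX2, 8 were in the table and 6 were tested, with 3 called up in WT, 2 up in KO and none down. The share of all genes called up was 7.72% in WT and 6.61% in KO. The called ones included TNFRSF11B, the decoy receptor osteoprotegerin (2.19, SE 0.26 in WT and 2.39, SE 0.27 in KO) and PHEX, a peptidase of mineralization (1.72, SE 0.44 and 1.48, SE 0.47). PHEX had 3 to 15 reads a library. SPP1 (0.15 in WT and 0.15 in KO), ALPL (-0.35 and 0.11) and MMP13 (-0.92 and -0.37) did not pass in either genotype. IBSP, BGLAP, SP7 and DMP1 were among those not in the table. A part of RUNX2 in these values was not tested.

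For the 4 called factors, the genes with the most similar profile over the 8 libraries were sought as the smallest root mean square difference of centred log2 CPM. They were FARP1 (0.082) and AI506816 (0.0851) for SNAI1, CNTN3 (0.092) and HSPA12B (0.109) for SNAI2, SPATA13 (0.0702) and SGK1 (0.104) for RUNX1, and FOSL2 (0.0453) and PICALM (0.0526) for RUNX2. FOSL2 changed by 0.67 in WT and 0.58 in KO. The difference depends on the size of the change and on read numbers, so its values do not rank the members against each other. A link between a factor and its nearest genes was not tested.

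Bulk libraries cannot tell more cells of a type from more RNA per cell, and several of the factors are known in meningeal and vascular cells. All 10 astrocyte markers were in the table, with a summed level of 4325 to 4557 CPM in WT control, 3440 to 3584 in WT TGF-β, 5017 to 5737 in KO control and 4252 to 4585 in KO TGF-β. All 10 meningeal fibroblast markers were also present, although the meninges had been removed, at 5440 to 6829, 10087 to 11523, 4572 to 4722 and 7888 to 7894 CPM in the same order. Of the 9 of these tested, 4 were called up and 2 down in WT and 4 up and 0 down in KO. COL1A1, COL1A2 and COL3A1 are in both this list and the EMT list, SOX9 is both an astrocyte marker and one of the other factors above, and COL1A1 alone went from 1606 and 1786 CPM to 3807 and 4627 CPM in WT. Mural cell markers (5 of 8 in the table) were at 210 to 212, 407 to 455, 179 to 184 and 341 to 361 CPM, with KCNJ8, ABCC9 and HIGD1B not listed. Without the 3 collagens, the other 7 fibroblast markers summed to 1789 and 2034 CPM in WT control and 1775 and 2129 in WT TGF-β. They summed to 1595 and 1616 in KO control and 1718 and 1815 in KO TGF-β. The WT groups overlapped, and the KO TGF-β sums were above the KO control sums. IGF2 alone was at 1097 and 1233 CPM in WT control. Of these 7, CRABP2 (2.35 in WT and 2.23 in KO) and ALDH1A2 (1.04, SE 0.26 in WT) rose. ALDH1A2 went from 34.5 and 24 CPM in KO control to 46.3 and 59.3 CPM in KO TGF-β. OGN (-0.85 and -0.50) and DCN (-0.62 and -0.36) fell, in KO by less than the fold limit. Of the mural markers, ANPEP (1.12 and 1.57), NOTCH3 (1.12 and 1.08) and PDGFRB (1.02 and 0.89) rose, RGS5 was at 0.17 and 0.03 (adjusted p = 0.485 and 0.91), and VTN was at -0.64 in WT (adjusted p = 0.0655) and fell in KO (-1.39, adjusted p = 0.00354). The astrocyte marker sum was lower after TGF-β in both genotypes and higher in KO in both conditions, and SLC1A2, a glutamate transporter, was its 1 called gene (-0.68 and -0.79). Their part in the values of the 10 factors was not tested.

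Endothelial markers (6 of 8 in the table, CLDN5 and TIE1 not listed) were at 99.8 to 125, 73.0 to 74.7, 101 to 127 and 67.8 to 80.5 CPM in the same order. Microglia and macrophage markers (12 of 12) were at 1401 to 1759, 1222 to 1633, 1510 to 1668 and 1268 to 1424 CPM, and none was called in either genotype. Oligodendrocyte lineage markers (8 of 9) were at 353 to 355, 287 to 323, 367 to 377 and 314 to 367 CPM, and neuron markers (6 of 10) were at 305 to 316, 378 to 397, 280 to 338 and 355 to 386 CPM.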

How the data were processed

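RNA sequencing was performed on 8 libraries of primary neonatal mouse astrocytes, unstranded. The authors aligned reads with STAR and deposited raw read counts per gene symbol, and FPKM values made with Cufflinks for 18644 entries. The submitters' notes name mm10, which is GRCm38, and how the count table was restricted to its genes is not given in the sources used here. Deposited DESeq results (log2 fold changes, p-values) were not used. Library totals ran from 14920561 to 18956038 counts.

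The count test was edgeR 4.0.16 (R 4.3.3). After filterByExpr, 13509 genes remained. TMM set the library scaling, and 1 quasi-likelihood fit gave each group its own mean across the 8 libraries, unblocked, with two-sided tests and Benjamini-Hochberg adjustment. The call limits of 0.6 (log2) and 0.05 are those of the study, which states a Bonferroni correction, tried here as an alternative. SE was derived from the F statistic, and 95% intervals from its t distribution. CPM values are scaled by TMM, and their log2 form adds a prior count of 2. FPKM was used for levels and ratios only, with no test. Alternatives were DESeq2 1.42.0, limma-voom (limma 3.58.1), other scalings and filters, a replicate block and leaving out each library. The fit was tested on simulated data first.

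The members and gene lists were chosen with earlier results of these data known. All members are described. From each other list, up to 3 genes called up and 3 called down in WT with the largest change are named, with any relative or partner, and some genes under this rule are not reported here. The 2 nearest profiles are given for called members. Gene models are from GENCODE M21 and promoter windows from RefSeq.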

Additional observations from a re-analysis of the deposited data

How the results depend on the processing

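The counts of called factors were 4 in WT and 3 in KO. They were 2 to 4 in WT and 1 to 3 in KO when each library was left out in turn, with the lowest counts without WT TGF-β replicate 1 and without KO TGF-β replicate 1. They were 0 in both under Bonferroni correction, where RUNX1 came nearest (adjusted p = 0.0522 in WT and 0.0568 in KO). The 2-genotype mean called 4, which became 8 with no fold limit and 1 (RUNX1) under Bonferroni correction. DESeq2, limma-voom, a fit of 4 libraries, other scalings and other filters kept the counts at 3 or 4 in WT and at 2 or 3 in KO, and every alternative left 0 called between genotypes and for the difference in response. Upper quartile scaling moved the median of all genes by -0.0858 in WT. Control and TGF-β libraries share replicate numbers, but the labels do not say that a number marks a shared culture. Same-numbered control and TGF-β libraries deviated in opposite directions (correlation -0.327 in WT and -0.341 in KO), while same-numbered WT and KO libraries deviated together (0.537 in control and 0.258 after TGF-β). With the replicate block 3 factors were called in WT (SNAI2 was lost) and 3 in KO. With the numbers crossed, an alternative chosen after seeing the data, 4 were called in each. SNAI2 had the fewest reads of the 10 factors, 47 to 179 a library.

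Signs turned for small values that were not called. With upper quartile scaling, RUNX1 in KO against WT control was 0.00. Leaving out 1 library at a time gave these ranges for KO against WT control: SNAI1 (-0.37 to 0.02), TWIST1 (-0.31 to 0.08), ZEB1 (-0.23 to 0.02), RUNX1 (-0.08 to 0.06), RUNX2 (-0.24 to 0.08). After TGF-β they were: SNAI2 (-0.57 to 0.06), ZEB1 (-0.12 to 0.05), ZEB2 (-0.22 to 0.03), RUNX1 (-0.14 to 0.10), FOXC1 (-0.24 to 0.02). For the KO response minus the WT response they were: SNAI1 (-0.32 to 0.07), SNAI2 (-0.25 to 0.41), TWIST1 (-0.33 to 0.06), ZEB1 (-0.05 to 0.19), ZEB2 (-0.15 to 0.10), RUNX1 (-0.14 to 0.10), RUNX2 (-0.21 to 0.11), FOXC1 (-0.01 to 0.26), FOXC2 (-0.22 to 0.30), SOX4 (-0.07 to 0.04). For TGF-β against control, FOXC2 in WT ran from -0.37 to 0.13 and its 2-genotype mean from -0.22 to 0.02, positive without WT control replicate 2. No called value changed sign. The order of FPKM levels kept SOX4 and FOXC1 first and SNAI2 last with counts per kilobase of exon and with control libraries alone, and neighbours in between changed places.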
